A study of Mus musculus with 46 samples.

Results

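The 37 genes described here encode the vacuolar proton pump and the membrane proteins and enzymes of the lysosome. They were taken by symbol from a list of named genes, with no threshold on a measured value, but with earlier results of these data known. Counts of members set beside shares of all genes are therefore a description. The members comprised 15 proton pump genes and 22 other lysosomal genes among 10397 genes that could be tested in the tables for DMSO. The tables for torin 1 held 9913 such genes and 36 of the 37 members, since Neu1, a sialidase, was listed only in the tables for DMSO. The cells were EPP2 cells, a murine pancreatic cancer line, in a clone derived from a single cell that carried a doxycycline-inducible Cas9. The groups were controls (NC), whose genotype the labels give as WT, and an inducible knockout of Ctu1 (Ctu1 iKO). The labels state for every sample that 300 ng/mL doxycycline induced the knockout 4 days earlier, without saying whether controls received it. The study's controls were of 2 kinds, guides that target no coding sequence and cells without doxycycline, and which kind the NC libraries are is not given in the sources used here. Ctu1 belongs to the enzymes that thiolate uridine at the wobble position of the tRNAs reading AAA, CAA and GAA codons. Cells were then exposed for 2 h to DMSO or to 300 nM torin 1, which blocks the active site of the kinase mTOR. Footprints of ribosomes, and poly(A) RNA of the same lysates, came from 6 control cultures with DMSO, 6 control cultures with torin 1, 5 Ctu1 iKO cultures with DMSO and 6 Ctu1 iKO cultures with torin 1. The study's methods name fewer independent replicates for ribosome profiling than the labels number, while its captions call the replicates independent experiments, so the p-values measure the spread between these samples, whatever its source.

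Lysosomes break down proteins, lipids and sugars in an acidic lumen. Their proton pump, the V-ATPase, has a soluble V1 sector that hydrolyses ATP and a membrane-bound V0 sector that lets protons through, and it is also part of the platform on which amino acids activate mTORC1 at the lysosomal surface. When mTORC1 is inactive, the transcription factors TFEB and TFE3 enter the nucleus and bind an E-box element that occurs in the promoters of many lysosomal genes.

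The hexamer CACGTG at the centre of this element was searched because it is shared by these promoters and reads the same on both strands. A RefSeq promoter window on GRCm38.p6, from 250 bases before to 50 bases after the start of transcription, was found for 31 of the 37 members, among them 11 of the 15 pump genes. The hexamer was present in 12 of the 31 (38.7%), against 8.09% of 27025 genes with such windows, and it occurred in 4 of 11 pump genes and 8 of 20 other lysosomal genes. The octamer TCACGTGA, which contains the hexamer, was present in 7 members (22.6%) and in 1.12% of all genes. With the 250 bases before the start alone, 10 members held the hexamer and 5 the octamer. The octamer preceded by G and followed by C, closest to the published consensus, was in 0 of the 31 members and in 0.37% of all genes, which says only that these letters are not in their windows. The following 30-base stretches are shown for members on which the results below turn, with the match in capitals, all read along the strand of the gene. Atp6v0d1 holds the octamer across its start (chr8:105566050-105566079, minus strand), Gla holds 2 copies (chrX:134601215-134601244 and chrX:134601182-134601211, minus strand), Ctsl holds only the hexamer (chr13:64370739-64370768, minus strand), and Lamp1 holds 4 hexamers, of which the first and the last are shown (chr8:13159088-13159117 and chr8:13159134-13159163, plus strand).
Atp6v0d1: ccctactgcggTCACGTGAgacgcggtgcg
Gla, distal: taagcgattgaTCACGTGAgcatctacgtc
Gla, proximal: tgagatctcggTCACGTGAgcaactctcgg
Ctsl: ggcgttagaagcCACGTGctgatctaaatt
Lamp1, first: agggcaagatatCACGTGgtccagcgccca
Lamp1, last: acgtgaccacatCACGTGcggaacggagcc
The pump gene Atp6v1a (chr16:44139373-44139402, minus strand) and the calcium channel gene Mcoln1 (chr8:3500462-3500491, plus strand) also hold the octamer, and are shown because neither passed the test in any main comparison below.
Atp6v1a: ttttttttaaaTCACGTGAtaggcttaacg
Mcoln1: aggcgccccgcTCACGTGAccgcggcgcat
The windows of Hexa and Grn, whose changes in Ctu1 iKO cells were among the largest of the list, held no hexamer. A match is a description of the sequence and not a bound site.

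The libraries held 129881946 to 325494304 counts for poly(A) RNA and 4602092 to 52907878 for footprints. Ctu1, the targeted gene, had 1.6, 2.38, 3.01, 3.63, 2.70 and 2.12 footprint CPM (counts scaled to a common library size, with TMM factors) in controls with DMSO and 1.46, 1.30, 2.25, 1.70 and 2.09 in Ctu1 iKO. These ranges overlap (log2 fold change -0.54, SE 0.29, adjusted p = 0.353, edgeR), and Ctu1 transcripts did not differ either (0.02, SE 0.11, adjusted p = 0.926), so the counts do not check the genotype labels, and Ctu1 was not listed in the tables for torin 1. A torin 1 score, the mean log2 level of 100 genes that rose minus that of 100 that fell in transcripts of control replicates 1 to 3, separated DMSO from torin 1 in every footprint library and in transcripts of Ctu1 iKO replicates 1 to 3. Among transcripts of replicates 4 to 6 some libraries went against their labels. Ctu1 iKO replicates 4 and 5 with DMSO scored 0.65 and 0.52, and replicates 5 and 6 with torin 1 scored -1.17 and -1.15 in control and -0.63 and -0.55 in Ctu1 iKO, while the controls with DMSO (-1.72 to -1.48) and replicate 4 with torin 1 (0.11 in control and 0.63 in Ctu1 iKO) followed them. Transcripts were therefore compared in replicates 1 to 3, and the counts of members called with all replicates are given beside each count for transcripts. Of 7 epithelial markers 5 were listed, with Krt8 at 164 ± 12.9 and Krt18 at 137 ± 9.81 footprint CPM (SD, n = 6) in controls with DMSO, while the fibroblast marker Col1a1 stood at 325 ± 102. Of 8 macrophage markers only Cd14 and Cd68 were listed, and Cd14 ranged from 2.02 to 4.27 CPM in controls with DMSO and from 4.63 to 8.89 in Ctu1 iKO with torin 1. In footprints the difference between Ctu1 iKO and control with DMSO was 0.30 for Cd14 (adjusted p = 0.681) and 1.14 for Cd68 (SE 0.29, adjusted p = 0.055), larger than that of any member, and with torin 1 it was 0.68 for Cd14 (adjusted p = 0.140), Cd68 being listed only with DMSO. Between genotypes with DMSO, 1 of 5 epithelial markers was higher in footprints (Krt8, 0.36, adjusted p = 0.035, list median 0.03) and 1 of 5 fibroblast markers in transcripts (Dcn, 1.36, adjusted p = 0.020, list median 0.42). The lowest of the 5 epithelial markers in these footprints was Epcam, at -1.26, which did not pass. Between genotypes with torin 1, Sox9 was higher in footprints (0.61, adjusted p = 0.021). With torin 1 in control, Sox9 (0.83) and Pdgfra (0.88) were higher in footprints, and Sox9, Krt18 and Pdgfra in transcripts. With torin 1 in Ctu1 iKO, Sox9 (1.01), Pdgfra (1.6) and Pdgfrb (0.85) were higher and Krt18 (-0.52) lower in footprints, and Sox9, Krt18, Krt8 and Cd14 (0.56) were higher in transcripts. The part of such genes in the results below was not tested. In bulk samples, fewer cells of a type and less RNA per cell cannot be told apart.

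The first question was whether lysosomal genes differ after loss of Ctu1 in cells with active mTOR. In footprints with DMSO, 6 of the 37 members were higher in Ctu1 iKO and 0 were lower, against 1.63% of all genes called higher (edgeR, adjusted p under 0.05). Of the pump, Atp6v0d1 and Atp6v1b2 rose, and of the other genes Hexa, Grn, Ctsb and Lamp1 rose. In all, 32 of 37 members had a positive log2 fold change, against 49.9% of all genes. The median log2 fold change was 0.21 over the pump genes and 0.24 over the other lysosomal genes, and below 0.01 in size over all genes.

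Atp6v0d1, which encodes the d subunit that couples the V0 and V1 sectors, had 9.14 to 15.4 footprint CPM in the 6 controls with DMSO (median 11.4). It had 13.7, 16.1, 23.4, 24.6 and 24.5 CPM in the 5 Ctu1 iKO cultures. Ctu1 iKO replicates 2 to 5 lay above all controls and replicate 1 lay inside their range, and the log2 fold change was 0.84 (SE 0.19, adjusted p = 0.030). Atp6v1b2, the B subunit of the ATP-hydrolysing ring, had 26.5 to 30.8 CPM in controls (median 28.6) and 33.2, 38.1, 43.9, 46.8 and 42.6 CPM in Ctu1 iKO. These groups did not overlap, and the log2 fold change was 0.53 (SE 0.10, adjusted p = 0.017).

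Among the enzymes, Hexa, the alpha subunit of beta-hexosaminidase that removes sugars from gangliosides, had 5.40 to 7.64 CPM in controls (median 6.82). It had 13.3, 11, 10.4, 11.1 and 13.4 CPM in Ctu1 iKO, so that every Ctu1 iKO culture was above every control (log2 fold change 0.80, SE 0.14, adjusted p = 0.010). Grn, which encodes progranulin, a secreted protein cut into granulins in the lysosome, had 176 to 243 CPM in controls (median 214) and 345, 312, 320, 308 and 344 CPM in Ctu1 iKO. These groups were also apart, with a log2 fold change of 0.63 (SE 0.09, adjusted p = 0.0024). Ctsb, the cysteine protease cathepsin B, went from 190 ± 15.4 (SD, n = 6) to 254 ± 27.7 CPM (SD, n = 5). Its groups did not overlap (log2 fold change 0.42, adjusted p = 0.028). Lamp1, the most abundant lysosomal membrane glycoprotein of many cells, had 141 to 191 CPM in controls and 188 to 263 in Ctu1 iKO, a log2 fold change of 0.42 (adjusted p = 0.049) with 1 Ctu1 iKO culture inside the range of the controls.

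The calls of Atp6v1b2, Hexa and Grn were kept whichever of the 11 footprint libraries was left out. The call of Lamp1 was kept only without Ctu1 iKO replicate 3 (adjusted p up to 0.114 otherwise), that of Atp6v0d1 was lost without control replicates 2, 3, 4 or 5 or Ctu1 iKO replicates 3, 4 or 5 (up to 0.078), and that of Ctsb without control replicates 2 to 5 or Ctu1 iKO replicates 1 or 5 (up to 0.076). With replicates 1 to 3 alone, 0 of the members passed, against 0.0192% of all genes called in either direction.

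By role, all 8 V1 genes, all 5 V0 genes and both accessory subunits were above 0 in this comparison, with log2 fold changes of 0.07 to 0.53 over V1. The 6 membrane proteins lay between 0.04 and 0.42, and 5 of the 6 proteases were above 0. The 6 glycosidases were divided, since Hexa rose while the median of the group was 0.01, and Neu1 stood at -0.02 (SE 0.32, adjusted p = 0.986).

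Transcripts were compared in the same way. In replicates 1 to 3 with DMSO, 10 of 37 members were higher in Ctu1 iKO and 0 lower, against 3.32% of all genes higher, and 36 of 37 log2 fold changes were positive, against 49.6% of all genes. Those called were Atp6v0d1, Atp6v1b2, Atp6ap1 and Atp6ap2 of the pump, and Hexa, Grn, Lamp1, Ctsb, Lamp2 and Cd63 of the other genes, the last a tetraspanin of late endosomes and lysosomes. Hexa had 10.2, 8.72 and 7.54 CPM in controls and 17.4, 17.9 and 15.8 CPM in Ctu1 iKO. The groups did not overlap, and the log2 fold change was 0.95 (SE 0.12, adjusted p = 0.014). Atp6v0d1 had 13.6, 12.7 and 11.6 CPM in controls and 19.6, 19.9 and 21.2 CPM in Ctu1 iKO. Here too all Ctu1 iKO cultures were above all controls, with a log2 fold change of 0.68 (SE 0.09, adjusted p = 0.015).

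The median log2 fold change of transcripts was 0.19 over the pump and 0.33 over the other lysosomal genes. The count varied with the libraries used, since 0 members passed without control replicate 2, Ctu1 iKO replicate 1 or Ctu1 iKO replicate 2. Without Ctu1 iKO replicate 3, 12 passed. These fits are smaller, and the counts are not set beside shares of all genes, so they show nothing particular to the members. Same-numbered cultures deviated together in these transcripts, and with the replicate number as a block 21 members passed, all higher (7 pump and 14 other), against 14.3% of all genes higher. With all replicates as labelled, which include the cultures whose score went against their labels, 23 passed, all higher, against 14.4% of all genes higher.

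**Figure D1:**
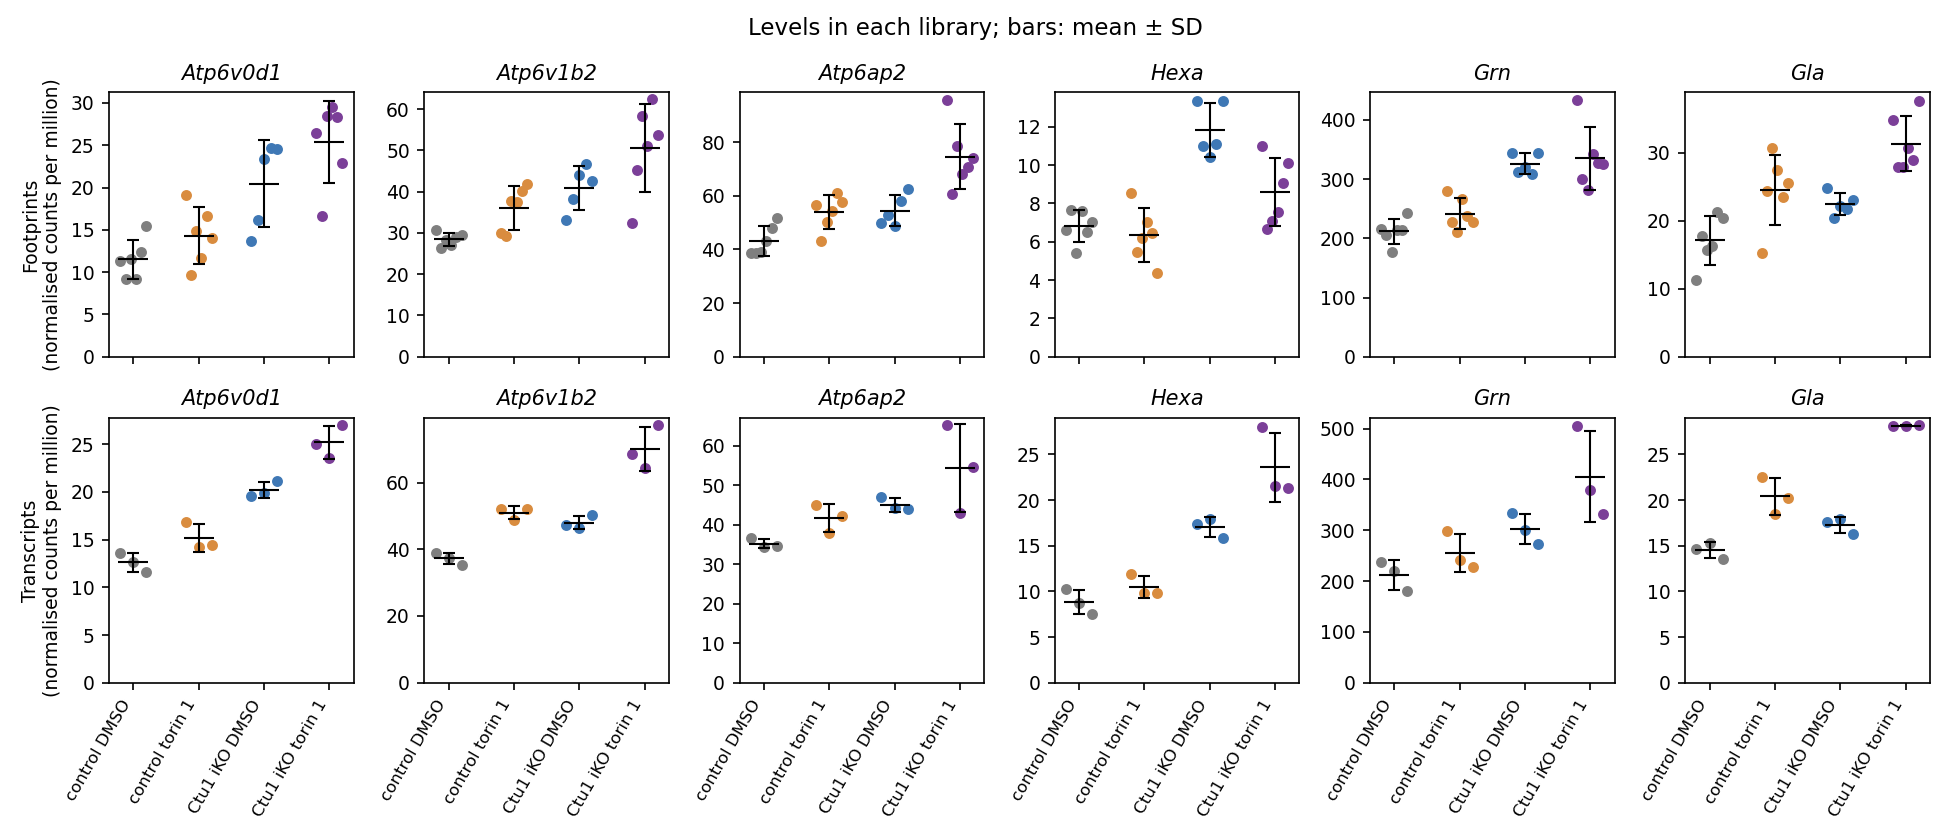
Footprints of all replicates (top row, n = 5 or 6) and transcripts of replicates 1 to 3 (bottom row) for 6 members, in normalised CPM on linear axes from 0. Points are libraries and bars are the mean ± SD. Hexa and Grn footprints of Ctu1 iKO with DMSO lie above every control with DMSO, and those of Hexa range from 6.67 to 11 in Ctu1 iKO with torin 1.

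The same comparison under torin 1 asked whether the difference between genotypes holds when mTOR is inhibited. In footprints, 4 of 36 members were higher in Ctu1 iKO and 0 lower, against 2.23% of all genes higher, and 31 of 36 were above 0, against 51.9% of all genes. The 4 were Atp6v0d1, Atp6ap2, Grn and Ctsb. The median log2 fold change was 0.22 over the pump and 0.24 over the other lysosomal genes. Atp6v0d1 had 9.64 to 19.1 CPM in controls with torin 1 (median 14.4) and 16.7 to 29.5 CPM in Ctu1 iKO with torin 1 (median 27.4). Only Ctu1 iKO replicate 2 lay inside the range of the controls, and the log2 fold change was 0.82 (SE 0.18, adjusted p = 0.018). Grn had 211 to 280 CPM in controls (median 233) and 281 to 434 CPM in Ctu1 iKO (median 326). These groups were just apart, with a log2 fold change of 0.47 (SE 0.11, adjusted p = 0.027).

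Atp6ap2, the accessory subunit also known as the prorenin receptor, had 43.3 to 61.1 CPM in controls and 60.5 to 95.8 CPM in Ctu1 iKO (log2 fold change 0.46, adjusted p = 0.041), and Ctsb had a log2 fold change of 0.45 (adjusted p = 0.022). The call of Atp6v0d1 was lost without Ctu1 iKO replicate 4 (adjusted p = 0.0502), that of Atp6ap2 on leaving out any library but Ctu1 iKO replicate 2 (up to 0.0898), that of Ctsb without control replicates 2 or 3 or Ctu1 iKO replicates 5 or 6 (up to 0.0598), and that of Grn without control replicates 2, 3, 5 or 6 or Ctu1 iKO replicates 4, 5 or 6 (up to 0.0685). With replicates 1 to 3 alone, 0 members passed, against 0.0101% of all genes called in either direction. Replicate numbers paired the cultures here, and with the replicate number as a block 12 members were higher and 0 lower, against 7.02% of all genes higher. The 8 added were Atp6v1b2, Atp6v1h, Atp6v1a and Atp6ap1 of the pump, and Lamp2, Laptm4a, Lamp1 and Ctsl. Hexa, the leading enzyme with DMSO, had 4.38 to 8.54 CPM in controls and 6.67 to 11 CPM in Ctu1 iKO with torin 1, and did not pass.

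Transcripts under torin 1 gave 2 members higher in Ctu1 iKO, Hexa and Atp6v0d1, and 0 lower, against 0.953% of all genes higher. Hexa had 11.9, 9.85 and 9.81 CPM in controls and 28.0, 21.5 and 21.3 CPM in Ctu1 iKO. That was the largest change of any member in any comparison made here, a log2 fold change of 1.18 (SE 0.15, adjusted p = 0.029). Atp6v0d1 had 16.8, 14.2 and 14.4 CPM in controls and 25.1, 23.6 and 27 CPM in Ctu1 iKO, also without overlap (log2 fold change 0.75, SE 0.11, adjusted p = 0.032). All 36 members were above 0, against 51.1% of all genes, with medians of 0.22 over the pump and 0.42 over the other lysosomal genes. With the replicate number as a block, 28 members passed, all higher (11 pump and 17 other), against 17.3% of all genes higher. With all replicates as labelled, 0 members passed, against 0.0% of all genes, and 0 passed without control replicates 1, 2 or 3 or Ctu1 iKO replicate 2, while 3 passed without Ctu1 iKO replicate 3.

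**Figure D2:**
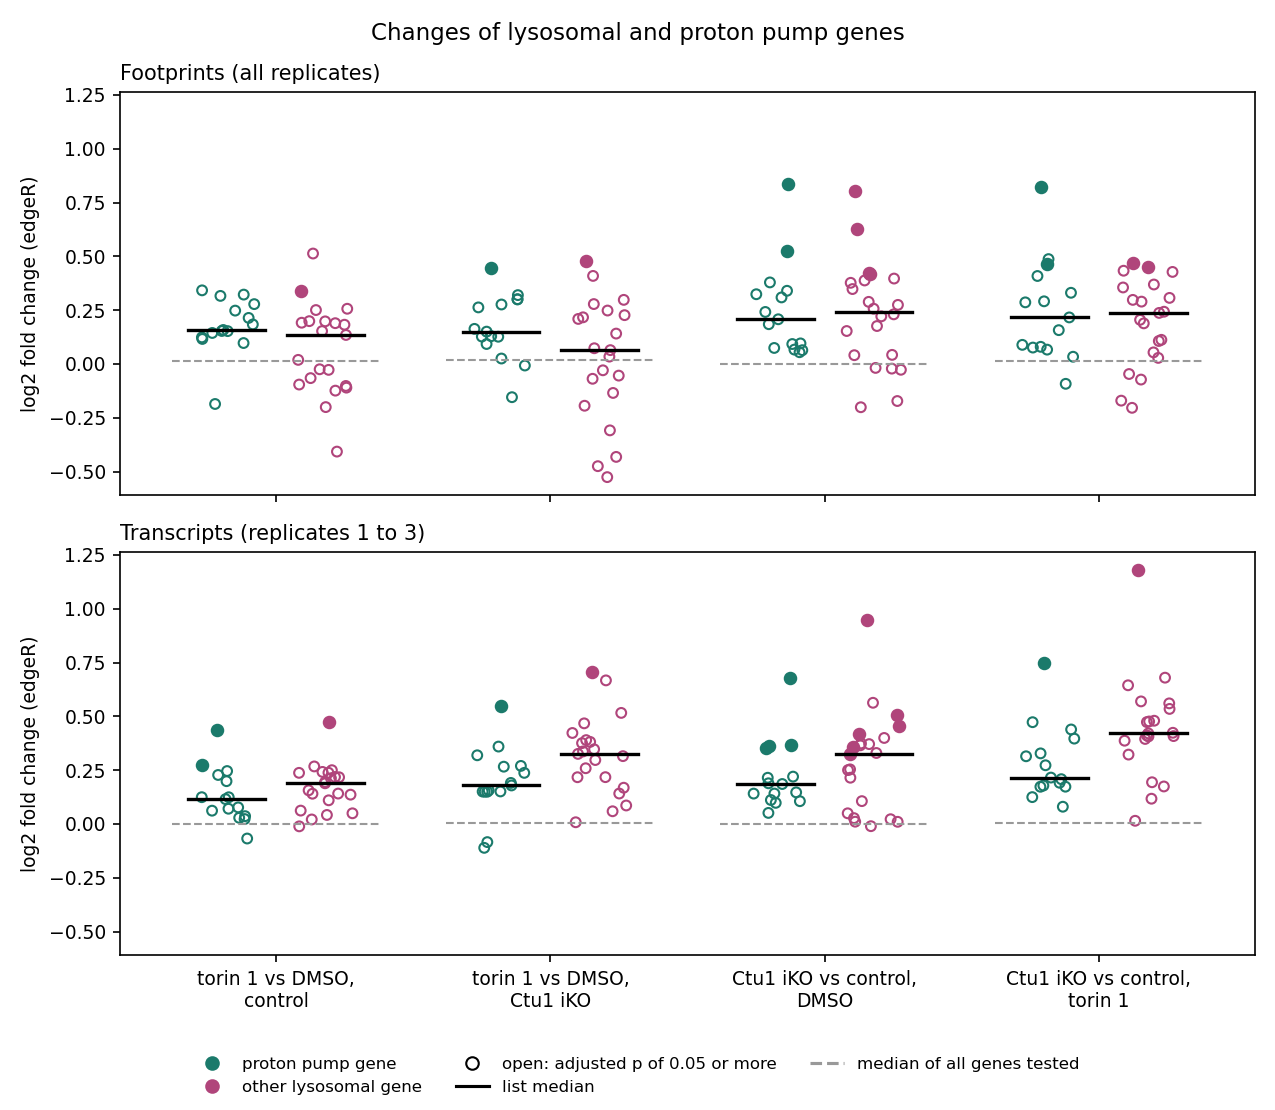
log2 fold change (edgeR) of each member in footprints of all replicates (top) and transcripts of replicates 1 to 3 (bottom), for torin 1 against DMSO in each genotype and Ctu1 iKO against control in each treatment. Filled points passed an adjusted p of 0.05, black lines are medians of the pump and of the other lysosomal genes, and the dashed line is the median of all genes. In transcripts of Ctu1 iKO against control with torin 1 all 36 points lie above 0, and the 2 filled ones are Hexa and Atp6v0d1.

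The comparison of torin 1 with DMSO asked how 2 h of mTOR inhibition moved the lysosomal genes. In footprints of control cells 1 of 36 members was higher, the cysteine protease gene Ctsl, and 0 were lower. All genes were called higher at 2.91% and lower at 4.33%. The count moved with the processing, with 4 members called by DESeq2 (4.89% of all genes higher) and 5 with scaling by library totals (6.11% higher and 3.32% lower). The changes were small and mostly upward, with 26 of 36 members above 0 against 52.7% of all genes, and a median log2 fold change of 0.16 over the pump and 0.13 over the other lysosomal genes against 0.01 over all genes. Of the pump, 14 of 15 genes were above 0, and all 8 V1 genes were (0.12 to 0.34).

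Ctsl, one of the most abundant members, had 1335, 1336, 1235, 1583, 1291 and 1441 footprint CPM in controls with DMSO. It had 2117, 1695, 1450, 1793, 1678 and 1652 CPM with torin 1, where replicate 3 was inside the range of DMSO (log2 fold change 0.34, SE 0.09, adjusted p = 0.043). The call was lost on leaving out any of the 12 libraries other than DMSO replicate 4 and torin 1 replicate 3 (adjusted p up to 0.104). Gla, the alpha-galactosidase that is deficient in Fabry disease, had 11.3 to 21.3 CPM with DMSO (median 17.1) and 15.3 to 30.7 CPM with torin 1 (median 25.0). Torin 1 replicate 1 lay within the range of DMSO, and the log2 fold change of 0.51 (SE 0.17) did not pass (adjusted p = 0.092). Lamp2, the membrane protein needed for chaperone-mediated autophagy, had 192 to 269 CPM (median 225) and then 212 to 335 (median 274), with overlapping groups and a log2 fold change of 0.26 (SE 0.12, adjusted p = 0.244).

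The 3 pump genes with the largest change were Atp6v1b2, Atp6ap2 and Atp6v0d1, and none passed. Atp6v1b2 had 26.5 to 30.8 CPM with DMSO and 29.2 to 41.7 with torin 1 (median 37.6), with a log2 fold change of 0.34 (SE 0.11, adjusted p = 0.066). Atp6ap2 had 38.5 to 51.7 CPM (median 41.0) and then 43.3 to 61.1 (median 55.5), with a log2 fold change of 0.32 (SE 0.11, adjusted p = 0.093). Atp6v0d1 moved from a median of 11.4 to one of 14.4 CPM with overlapping groups (0.32, SE 0.17, adjusted p = 0.325).

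At the other end, Atp6v0b, a proteolipid of the proton-carrying ring, had 57.4 to 83.5 CPM with DMSO (median 71.0) and 47.7 to 78.1 with torin 1 (median 61.6). It was the only pump gene below 0 and its groups overlapped (log2 fold change -0.19, SE 0.13, adjusted p = 0.450). Atp6ap1, an accessory subunit used in pump assembly, had 175 to 227 CPM and then 159 to 241 (0.10, SE 0.10, adjusted p = 0.664), and Atp6v0c, the main proteolipid of the ring, had 254 to 368 and then 268 to 357 (0.12, SE 0.10, adjusted p = 0.580). The groups overlapped for both genes, and for Atp6ap1 the range with torin 1 was wider at both ends. Among the other lysosomal genes the lowest were Naglu, an enzyme of heparan sulfate breakdown, with 4.53 to 9.58 CPM (median 5.80) and then 3.30 to 5.76 (median 5.15), and Npc2, the soluble cholesterol carrier, with 56.8 to 69.8 (median 60.6) and then 49.3 to 66.8 (median 51.9). Neither passed, at -0.41 (SE 0.23, adjusted p = 0.338) and -0.20 (SE 0.10, adjusted p = 0.249). Gusb, the beta-glucuronidase, had 76.3 to 107 and then 77.1 to 86.9 CPM (-0.12, SE 0.09, adjusted p = 0.504), a difference whose sign turned with replicates 1 to 3 alone (0.03).

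Same-numbered cultures deviated together in this comparison as well. With the replicate number as a block 9 of 36 members (25.0%) were higher and 0 lower, against 9.88% of all genes higher. These were Atp6v1b2 (0.33), Atp6v1c1 (0.29), Atp6v1h (0.21) and Atp6ap2 (0.32) of the pump, and Ctsl (0.33), Gla (0.51), Lamp2 (0.25), Tpp1 (0.25) and Ctsb (0.20) of the other genes. With replicates 1 to 3 alone, 0 members passed, against 1.4% of all genes called in either direction.

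In transcripts of control cells 3 of 36 members were higher with torin 1 and 0 lower, against 5.69% of all genes higher and 7.4% lower. Atp6v1b2 had 38.8, 37.5 and 35.4 CPM with DMSO and 52.2, 48.6 and 52.1 CPM with torin 1. The groups were well apart, with a log2 fold change of 0.44 (SE 0.07, adjusted p = 0.0071), and this call was kept whichever of the 6 libraries was left out. Gla had 14.6, 15.3 and 13.6 CPM and then 22.5, 18.4 and 20.3 CPM, again apart (0.48, SE 0.10, adjusted p = 0.020), a call lost without DMSO replicates 1 or 2 or torin 1 replicate 1 (adjusted p up to 0.066). Atp6v1d, a subunit of the central shaft, was called at 0.28 (adjusted p = 0.049), and not on leaving out any 1 library (up to 0.137). In all, 34 of 36 members were above 0, against 50.2% of all genes, with medians of 0.12 over the pump and 0.19 over the other lysosomal genes. With the replicate number as a block 20 passed, all higher (6 pump and 14 other), against 20.7% of all genes higher, and with all replicates as labelled 6 passed, all higher, against 4.65%.

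In footprints of Ctu1 iKO cells Gla and Atp6ap2 were called higher with torin 1, 2 of 36 members, and 0 were called lower, against 3.48% of all genes higher. Gla had 24.8, 20.4, 22.2, 21.7 and 23.0 CPM with DMSO and 28.0 to 37.6 CPM with torin 1 (median 29.9). The groups did not overlap (log2 fold change 0.48, SE 0.13, adjusted p = 0.032), and the call was lost without DMSO replicates 2 to 5 or torin 1 replicates 4 or 6 (adjusted p up to 0.0781). Atp6ap2 had 49.9, 52.9, 48.8, 58.2 and 62.6 CPM and then 60.5 to 95.8 CPM (median 72.4). Torin 1 replicate 2 was the only culture that overlapped with DMSO (0.45, SE 0.13, adjusted p = 0.044), and the call was lost on leaving out any library but that one (up to 0.109). Without torin 1 replicate 1, 2 members were called lower, Npc2 (-0.54, adjusted p = 0.017) and Gusb (-0.37, adjusted p = 0.044), against 5.36% of all genes lower. With the replicate number as a block, Gla and Atp6ap2 were no longer called and Npc2 was lower (-0.42, adjusted p = 0.038). In that fit 4.63% of all genes were higher and 5.35% lower, though replicate numbers did not pair these cultures (r from -0.03 to 0.42). Npc2 was also lower with replicates 3 to 6 and, with Gusb, in 1 fit of all groups. With replicates 1 to 3 alone 0 members passed, against 1.81% of all genes. The median log2 fold change was 0.15 over the pump and 0.06 over the other lysosomal genes, and 25 of 36 members were above 0, against 52.2% of all genes.

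Transcripts of Ctu1 iKO cells gave Gla and Atp6v1b2 higher and 0 members lower, against 3.73% of all genes higher. Gla had 17.6, 17.9 and 16.3 CPM with DMSO and 28.1, 28.1 and 28.3 CPM with torin 1, a log2 fold change of 0.70 (SE 0.08, adjusted p = 0.0069) that was kept whichever of the 6 libraries was left out. Atp6v1b2 had 47.3, 46.4 and 50.2 CPM and then 68.6, 64.3 and 77.3 CPM (0.55, SE 0.09, adjusted p = 0.016), a call lost without DMSO replicates 1 or 2 (up to 0.084). Both genes were apart between the groups. When torin 1 replicate 3 was left out 5 members passed, and without DMSO replicates 1 or 2, 1 passed. The medians were 0.18 over the pump and 0.33 over the other lysosomal genes, with 34 of 36 members above 0, against 50.7% of all genes. With the replicate number as a block 18 passed, all higher (5 pump and 13 other), against 17.1% of all genes higher, and with all replicates as labelled 0 passed, against 0.0%. The 2 comparisons of genotypes and the 2 of treatments share their cultures in pairs, so that each gives its own values and no overlap between them is counted.

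The difference between the torin 1 effects of the genotypes was tested as an interaction. In footprints 0 of 36 members passed in edgeR, 0 had an unadjusted p under 0.05 (4.67% of all genes did), and 0 passed in DESeq2, while 0.639% of all genes were called in either direction. The point estimates of footprints were above 0 for 16 of 36 members, against 51.8% of all genes. In transcripts 0 of 36 passed, with 0 at an unadjusted p under 0.05 (1.46% of all genes) and 0 in DESeq2, and 0.0% of all genes were called. With all replicates as labelled 0 passed as well. The point estimates of transcripts were above 0 for 33 of 36 members, against 54.6% of all genes. They ran from -0.13 to 0.41, the highest being Npc1, the cholesterol exporter of the lysosomal membrane (0.41, SE 0.24, adjusted p = 0.9998).

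Footprints relative to transcripts, the translational efficiency, were tested in replicates 1 to 3 of both assays, and no member passed in any of the 4 comparisons in edgeR. All genes were called at 1.18% for torin 1 in control, 1.77% for torin 1 in Ctu1 iKO, 0.0% for Ctu1 iKO with DMSO and 0.114% for Ctu1 iKO with torin 1. At an unadjusted p under 0.05 there were 0, 3, 0 and 1 members in these comparisons, against 6.69%, 9.1%, 3.76% and 4.68% of all genes, so that no share of members was above the background. DESeq2 called 0, 1, 0 and 0 members, against 2.36%, 3.29%, 0.208% and 1.06% of all genes. With all replicates of both assays 1, 0, 0 and 0 members were called, the 1 being Npc2, lower, against 1.72%, 2.67%, 0.0494% and 1.17% of all genes. The 3 members for torin 1 in Ctu1 iKO were Hexa, Naglu and Npc2, named after their values were seen and as a description only. Hexa had a log2 difference of -1.0 (SE 0.30, adjusted p = 0.197 in edgeR, called in DESeq2), Npc2 of -0.68 (SE 0.21, adjusted p = 0.235) and Naglu of -1.07 (SE 0.42, adjusted p = 0.434).

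The point estimates differed in sign between comparisons. For torin 1 in Ctu1 iKO 13 of 36 members were above 0, against 53.6% of all genes, made up of 9 of 15 pump genes (median 0.09) and 4 of 21 other lysosomal genes (median -0.24). Within the pump 3 of 8 V1 genes and 4 of 5 V0 genes were above 0. Among the other genes 0 of 5 glycosidases (-1.07 to -0.24) and 1 of 6 proteases were. For torin 1 in control 11 of 15 pump genes (median 0.12) and 13 of 21 other genes (median 0.02) were above 0, against 55.5% of all genes. For Ctu1 iKO against control with DMSO these were 7 of 15 and 12 of 22, against 49.1% of all genes, and with torin 1 they were 6 of 15 (median -0.04) and 2 of 21 (median -0.18), against 51.4% of all genes. The difference between the lists was not tested, and epithelial markers were also lower in efficiency for torin 1 in Ctu1 iKO, with Krt18 at -1.32 (adjusted p = 0.010) and Krt8 at -0.75 (adjusted p = 0.0499).

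The efficiency of the glycosidases is made from the following values of the separate assays, which are no further evidence, and the group was picked with its values in view. With torin 1 in control 1 of 5 was above 0 in footprints (median -0.11) and 5 of 5 in transcripts (median 0.19). In Ctu1 iKO these were 1 of 5 (median -0.31) and 5 of 5 (median 0.38). Gla was the glycosidase above 0 in footprints both times.

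The mean log2 CPM of footprints over the 15 pump genes was 5.77 ± 0.05 (SD, n = 6) in control with DMSO, 5.94 ± 0.11 (n = 6) with torin 1, 6.01 ± 0.14 (n = 5) in Ctu1 iKO with DMSO and 6.18 ± 0.14 (n = 6) in Ctu1 iKO with torin 1. Control replicate 2 with torin 1, at 5.73, lay within the range of control with DMSO, and all Ctu1 iKO cultures but replicate 1 with DMSO (5.84) were above every control with DMSO. Over the 21 other lysosomal genes the means were 6.23 ± 0.10, 6.30 ± 0.11, 6.46 ± 0.14 and 6.48 ± 0.24 in the same order, and Ctu1 iKO replicate 1 with torin 1 stood far above the rest of its group at 6.93. The pump minus the other lysosomal genes was therefore -0.46 ± 0.12 in control with DMSO and -0.30 ± 0.27 in Ctu1 iKO with torin 1, with ranges of the cultures that overlap. This gap depended on the summary, because with the median over genes in place of the mean it was -0.82 ± 0.11, -0.57 ± 0.16, -0.64 ± 0.13 and -0.13 ± 0.29 in the 4 groups, and of the cultures in Ctu1 iKO with torin 1 only replicate 2 (-0.68) then lay in the range of control with DMSO. The change of the gap was not tested. In transcripts (n = 3 each) the pump means were 5.50 ± 0.05, 5.64 ± 0.04, 5.72 ± 0.01 and 5.90 ± 0.08, and those of the other genes 6.15 ± 0.13, 6.33 ± 0.15, 6.44 ± 0.14 and 6.73 ± 0.25. There the gap ran from -0.65 ± 0.08 in control with DMSO to -0.83 ± 0.27 in Ctu1 iKO with torin 1, and with medians over genes it was -0.99 ± 0.09, -1.03 ± 0.15, -1.19 ± 0.10 and -1.05 ± 0.07 in the 4 groups.

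**Figure D3:**
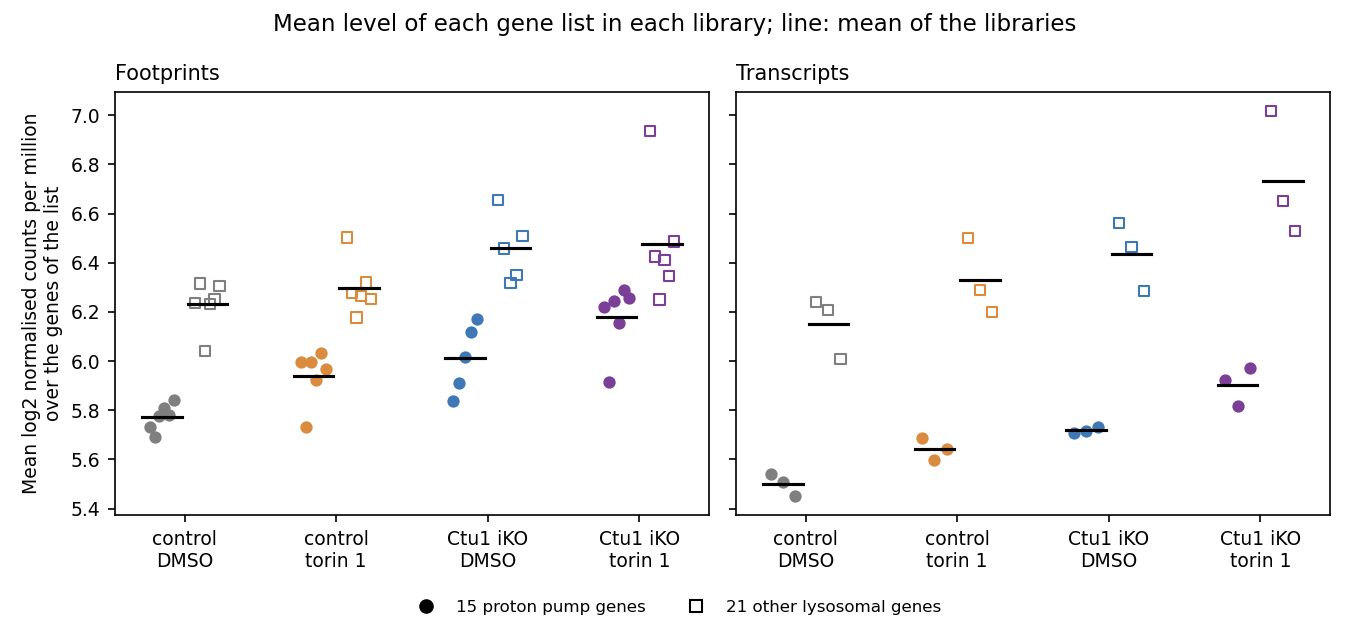
Mean log2 normalised CPM over the 15 proton pump genes (filled circles) and the 21 other lysosomal genes (open squares) in each library, for footprints (left) and transcripts of replicates 1 to 3 (right). Lines are means of the libraries. Pump footprints run from 5.77 in control with DMSO to 6.18 in Ctu1 iKO with torin 1, and 1 footprint square of Ctu1 iKO with torin 1 stands apart at 6.93.

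Per length, footprints of the pump subunits covered a wide range that did not follow their number in the complex. In control with DMSO (n = 6), the density in CPM per kilobase of coding sequence was 639 ± 87.1 (SD) for Atp6v0c and 329 ± 101 for Atp6v0e, a small V0 subunit. It was 64.8 ± 6.46 for Atp6v1a and 18.6 ± 1.04 for Atp6v1b2, the A and B subunits that are present in equal number in the ring. Atp6v0d1 had the lowest density of the pump at 10.9 ± 2.21. The 5 genes whose product is present in several copies per pump had a median of 88.8 (18.6 to 639), the 10 genes of subunits present once had a median of 56.5 (10.9 to 329), and these ranges overlap over most of their extent. Atp6v0c has a longer coding sequence in RefSeq, which gives 463 ± 63.1 in its place. The other 21 lysosomal genes had a median of 111 and ran from 2.90 for Naglu to 1400 for Cd63, with Ctsl at 1367 and Psap, the precursor of the saposins that help lipid enzymes, at 588.

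**Figure D4:**
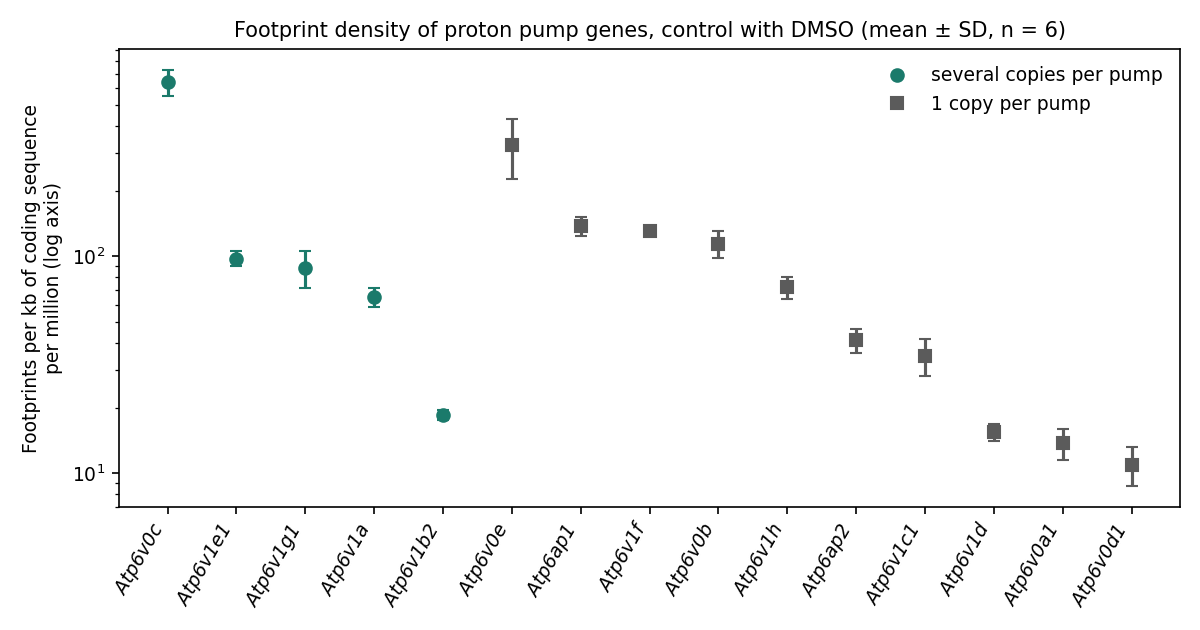
Footprint density of the 15 pump genes in control with DMSO, in CPM per kilobase of coding sequence on a log axis (mean ± SD, n = 6). Circles are subunits present in several copies per pump and squares those present once. Atp6v0c is highest at 639 and Atp6v0d1 lowest at 10.9, and the 2 classes overlap.

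Since Ctu1 acts on the tRNAs that read AAA, CAA and GAA, the share of these codons was counted in 1 coding sequence per gene. It was 5.14% (median) over the 15 pump genes and 3.88% over the 22 other lysosomal genes, against 6.06% over 10149 genes. Of the pump 6 genes were above the median of all genes, and of the other genes 2. The V1 genes Atp6v1d (13%), Atp6v1e1 (12.4%) and Atp6v1h (12.2%) were richest in them, and Atp6v0c was poorest (1.29%). Of the 4 members with the largest footprint changes in Ctu1 iKO cells with DMSO, Atp6v0d1 (2.56%), Hexa (3.79%) and Grn (2.16%) were below the median of all genes and Atp6v1b2 (6.46%) was above it. Atp6v1h had a footprint log2 fold change above 0 in this comparison, as all 15 pump genes had.

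Genes that act around the lysosome were counted in the same fits, to place the members among them. In control cells with torin 1, 2.91% of all genes were called higher and 4.33% lower in footprints. In transcripts these shares were 5.69% and 7.4%. Of 14 listed genes that control TFEB, 3 rose in footprints of control cells with torin 1, namely Fnip1 (1.34, adjusted p = 9.8e-05), Flcn (0.60, adjusted p = 0.0026) and Rragc (0.47, adjusted p = 0.047), which encode the folliculin complex and the GTPase it acts on. These changes were larger than that of Ctsl (0.34), the only member called in this comparison. Gla, a member that was not called, changed by 0.51. The same 3 rose in transcripts, by 1.25, 0.36 and 0.35, while Fnip2 fell by 0.42. Of 33 further lysosomal genes, Ctns, the cystine exporter, rose in footprints (0.74, adjusted p = 0.035) and 0 passed in transcripts, with 26 and 29 of 33 above 0. Of 3 other pump genes, 0 passed in footprints, while in transcripts Tcirg1 rose (0.30, adjusted p = 0.045) and Atp6v0a2 fell by 0.41, both alternative forms of the a subunit. Of 10 genes of pump assembly 0 passed in footprints and Ccdc115 fell by 0.49 in transcripts, and of 11 genes that sort enzymes to the lysosome Gga3 fell by 0.55 in footprints and 0 passed in transcripts. In Ctu1 iKO against control with DMSO, footprints of 2 of 14 genes that control TFEB and 1 of 34 further lysosomal genes rose, and 0 of the 24 other pump, assembly and sorting genes passed. There 1.63% of all genes were called higher.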

How the data were processed

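Per the file headers and the labels, the deposited values are raw read counts per gene in separate tables for DMSO and torin 1; the authors removed adapters (cutadapt 3.4), collapsed molecular identifiers (UMI-tools 1.1.1) and aligned to GRCm38 (STAR 2.5.3a), the build from the submitters' processing notes, while the study's methods name a human build for footprints; the symbols are those of mouse genes. All transcript counts were even numbers, and every listed gene reached at least 100 footprints in some library. Symbols listed more than once (11) were left out.

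Counts were fitted with edgeR 4.0.16 (TMM, quasi-likelihood, R 4.3.3) after genes averaging under 10 counts were dropped, and p-values were adjusted by Benjamini-Hochberg with a threshold of 0.05. Footprints entered with all replicates and transcripts with replicates 1 to 3. Translational efficiency was the interaction of assay and group. Alternatives were DESeq2 1.42.0, scaling by library totals, no filter, a replicate block, other replicate sets, a fit of all 4 groups and leaving out each library. The fits were tested on simulated data.

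Deviations from group means correlated between same-numbered cultures by 0.44 to 0.64 (footprints, torin 1 in control), 0.32 to 0.55 (footprints, genotypes with torin 1), and in transcripts by 0.53 to 0.84 (torin 1 in control), 0.65 to 0.77 (torin 1 in Ctu1 iKO), 0.49 to 0.65 (genotypes with DMSO) and 0.65 to 0.81 (genotypes with torin 1).

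Members were taken by name, and both they and the gene lists were chosen with earlier results of these data known. Named were the 3 highest and 3 lowest genes of each list in footprints of control cells with torin 1, up to 2 called members per direction in the other comparisons and up to 3 called genes per further list and direction. Any other gene was picked with its values in view.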

Additional observations from a re-analysis of the deposited data

Results flagged for a closer look

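In 3 of 56 groups of footprint libraries tested, over 14 genes, 1 library stood far from the others, which chance gives in about 1 of 20 groups. Npc2 had 66.8 CPM in control replicate 1 with torin 1, where the next was 52.1. Atp6v0b had 37.7 in Ctu1 iKO replicate 2 with torin 1, where the next was 64.6. Ctsl had 2797 in Ctu1 iKO replicate 1 with torin 1, where the next was 2036. In data outside the main comparisons, the torin 1 score of transcripts was 0.65 and 0.52 in Ctu1 iKO replicates 4 and 5 with DMSO, above every control with DMSO.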

How the results depend on the processing

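The numbers of members called are given in the order torin 1 in control, torin 1 in Ctu1 iKO, genotypes with DMSO and genotypes with torin 1, and shares of all genes called in the same fit, in either direction, stand in parentheses. In footprints (1, 2, 6 and 4 in the report) replicates 1 and 2 alone, and replicates 1 to 3 alone, gave 0 in each (1.36%, 1.47%, 0.0% and 0.0%, and 1.4%, 1.81%, 0.0192% and 0.0101%). Torin 1 in control gave 4 with DESeq2 (10.8%), 5 with library totals (9.43%), 9 with the replicate block (20.5%), 2 with replicates 3 to 6 (6.57%) and 2 with 1 fit of all groups (6.91%). Torin 1 in Ctu1 iKO gave 4 with library totals (9.1%) and 1 (Npc2, lower, with Gla and Atp6ap2 no longer called) with the replicate block (9.97%). It gave 1 (again Npc2, lower) with replicates 3 to 6 (8.42%) and 5 with 1 fit of all groups (12.0%), 2 of them lower. Genotypes with torin 1 gave 12 with the block (14.4%). Numbers did not pair the footprints of torin 1 in Ctu1 iKO (r from -0.03 to 0.42) or of genotypes with DMSO (r from -0.10 to 0.46), where the block gave 7 (3.5%). In transcripts (3, 2, 10 and 2) DESeq2 gave 6, 10, 16 and 9 (20.4%, 16.7%, 15.1% and 11.3%), the replicate block 20, 18, 21 and 28 (43.7%, 35.1%, 28.0% and 32.8%), and all replicates as labelled 6, 0, 23 and 0 (9.51%, 0.0%, 26.4% and 0.0%). Genotypes with DMSO gave 6 with library totals (4.67%), 17 with replicates 1 and 2 (15.3%) and 4 with 1 fit of all groups (6.28%), torin 1 in Ctu1 iKO 10 with that fit (17.9%), and genotypes with torin 1 0 with replicates 1 and 2 (0.124%) and 10 with that fit (10.1%). Efficiency gave 1 (Npc2, lower) for torin 1 in control with all replicates (1.72%) and 1 (Hexa, lower) for torin 1 in Ctu1 iKO with DESeq2 (3.29%). Leaving out 1 library gave 0 to 2, 0 to 3, 3 to 5 and 1 to 5 in footprints, 1 to 2, 1 to 5, 0 to 12 and 0 to 3 in transcripts, and 0 for efficiency and interactions. Gusb reversed to 0.0031 with replicates 1 and 2 and 0.028 with replicates 1 to 3. With medians over genes the pump stood below the other genes in footprints of control by -0.82 (DMSO) and -0.57 (torin 1) and in Ctu1 iKO by -0.64 and -0.13, and in transcripts by -0.99 and -1.03 in control and -1.19 in Ctu1 iKO with DMSO. Library totals moved the median of all footprints with torin 1 from 0.01 to 0.10 in control and from 0.02 to 0.11 in Ctu1 iKO, and the higher and lower calls from 287 and 427 to 602 and 327, and from 343 and 445 to 580 and 317. In transcripts of the genotypes with DMSO these calls went from 336 and 182 to 263 and 210. The causes were not tested. Footprint CPM was low for members such as Naglu, Neu1, Scarb2 and Hexa, and the effect of depth on them was not tested.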

Other observations

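Transcripts of replicates 4 to 6, which entered no main comparison, varied within groups for the members that led the comparison of genotypes. They include the libraries whose torin 1 score went against their labels. These are replicates 5 and 6 with torin 1 in both genotypes, and Ctu1 iKO replicates 4 and 5 with DMSO. Groups are given as labelled, and the source of the spread was not tested. Hexa had 8.15, 8.72 and 9.92 CPM in control with DMSO, 10.4, 16.8 and 18.8 in control with torin 1, 25.1 and 25.9 in Ctu1 iKO with DMSO, and 23.1, 9.21 and 9.84 in Ctu1 iKO with torin 1. Atp6v0d1 had 10.9, 12.6 and 13.2, then 13.9, 23.1 and 24, then 29.2 and 29.3, and then 27.4, 13.5 and 15.2 in the same order. For both genes the libraries labelled Ctu1 iKO with DMSO were highest. Of the 3 labelled Ctu1 iKO with torin 1, 2 lay at the level of control replicates.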
